A study of Mus musculus with 8 samples.

Results

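The proteasome genes were taken as every gene symbol of the tables that begins with Psm, then a letter from a to g, then a digit. Of the 24306 mouse gene symbols with a usable estimate, 50 matched. They were 7 alpha-ring and 7 beta-ring genes of the standard 20S core, 3 inducible core genes, 2 core genes known from single tissues, 17 genes of the 19S regulatory particle, 6 genes of alternative activators and an inhibitor, 7 assembly genes, and Psmc3ip. Psmc3ip shares the symbol stem only: it encodes a meiotic recombination factor. It is in no subunit class, but the counts over all members include it.

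The 26S proteasome degrades proteins that carry a ubiquitin chain. Its 20S core is a barrel with alpha rings at its ends and beta rings inside, and the beta subunits encoded by Psmb5, Psmb6 and Psmb7 hold the cutting sites. The 19S particle binds the chain, removes it, unfolds the substrate with a ring of ATPases and feeds it into the core. Cytokine-exposed and blood cells can swap the cutting subunits for inducible ones (the immunoproteasome), the activators of the PA28 family open the core without ubiquitin, and chaperones build the core and the base of the 19S particle before they leave. High proteasome activity and 19S levels have been linked to the stem cell state in embryonic stem cells.

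Polyadenylated RNA was sequenced with strand information from mouse embryonic stem cells (ESC) of the E14 line and from their differentiated progeny, labelled neural progenitors (NPC). The 4 groups were wild-type ESC, Wdr68 knockout ESC, wild-type NPC and Wdr68 knockout NPC, with 2 libraries each. All groups share the E14 line, and the labels give neither how the knockout was made nor whether it is 1 clone. ESC grew in 15% serum with LIF and inhibitors of the kinases MEK and GSK3, on mouse fibroblast feeders or gelatin. NPC were made by culture in hanging drops of 500 cells for 2 days, on a non-adhesive surface for 2 more and under retinoic acid for 4, so they are whole differentiated cultures and not sorted cells. The labels say that samples were sequenced in duplicate and not whether the duplicates were separate cultures, so a p-value here sets a difference against variation among libraries that could be purely technical.

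Levels are FPKM, fragments scaled to transcript length and library size, as deposited by the authors. The tables hold no counts, and the fragment numbers implied by their 95% confidence bounds came to 5996677 to 7942644 per library. Dcaf7, the mouse symbol of Wdr68, was at 12.4 and 14.2 FPKM in the wild-type ESC libraries, 2.80 and 2.26 in knockout ESC, 27.2 and 29.6 in wild-type NPC, and 8.36 and 8.99 in knockout NPC, so it was reduced and not at 0. The 6 stem cell markers summed to 3501 to 4086 FPKM in the ESC libraries and to 5.28 to 12.6 in the NPC libraries. The 8 neural progenitor markers summed to 255 and 258 FPKM in wild-type NPC but to 46.3 and 47.8 in knockout NPC. The 8 markers of embryonic blood and endothelium summed to 90.2 and 119 FPKM in wild-type NPC and to 856 and 1053 in knockout NPC, so the cultures labelled NPC differed between genotypes in these markers.

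All of 6 genes taken up here were called lower in NPC in both genotypes, as given below. Being all lower, they cannot show whether the letters go with a change. Their promoter stretches are shown first, as examples of 2 of the motifs searched. Each is the 120 bases before the gene's start in RefSeq (build GRCm38.p6, whereas the expression tables use mm9), 5′ to 3′ on the gene's strand. Capitals mark the letters CCGGAAG, a core bound by ETS family factors, or GCGCANGCG, the core of the nuclear respiratory factor site, on either strand. Psmd2, Psmd11 and Psmd12 encode 19S subunits whose promoters hold the ETS letters. Psma4, Psmc5 and Psmd14 encode a core subunit, a 19S ATPase and the 19S deubiquitinase, and hold the nuclear respiratory factor letters. They lie at chr16:20651532-20651651 (plus strand), chr11:80428495-80428614 (plus strand), chr11:107479408-107479527 (plus strand), chr9:54950739-54950858 (plus strand), chr11:106256065-106256184 (plus strand) and chr2:61711574-61711693 (plus strand).
Psmd2: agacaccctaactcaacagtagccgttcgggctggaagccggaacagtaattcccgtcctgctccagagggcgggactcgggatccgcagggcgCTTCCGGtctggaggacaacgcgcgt
Psmd11: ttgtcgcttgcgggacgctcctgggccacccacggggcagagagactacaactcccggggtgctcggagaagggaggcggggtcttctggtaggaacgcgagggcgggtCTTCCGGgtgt
Psmd12: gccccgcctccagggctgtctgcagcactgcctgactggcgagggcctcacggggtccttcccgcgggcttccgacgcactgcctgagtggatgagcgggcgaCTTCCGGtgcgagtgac
Psma4: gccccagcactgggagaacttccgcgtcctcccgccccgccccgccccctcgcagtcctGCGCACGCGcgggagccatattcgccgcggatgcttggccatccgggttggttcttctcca
Psmc5: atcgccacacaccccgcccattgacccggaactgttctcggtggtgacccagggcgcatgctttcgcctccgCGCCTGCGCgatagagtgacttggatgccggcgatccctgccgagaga
Psmd14: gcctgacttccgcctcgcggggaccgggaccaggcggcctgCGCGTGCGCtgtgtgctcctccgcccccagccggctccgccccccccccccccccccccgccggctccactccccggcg

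Of the 50 genes, 42 had a promoter of 300 bases in the RefSeq table. CCGGAAG occurred in 14 of the 42 (33.3%), against 18% of the 9909 promoters of genes tested and 9.12% of all 27025 promoters. Of the 22 that were called lower in wild-type NPC, 8 held CCGGAAG and 7 held GCGCANGCG. CCGGAAG was also in Psmg3, called higher in wild type, Psmc3ip, called higher in the knockout, and Psmd6, called in neither. GCGCANGCG occurred in 7 of the 42 (16.7%), against 14% of tested and 6.47% of all promoters. The 7 were Psma2, Psma3, Psma4, Psmc4, Psmc5, Psmd14 and Psmg1. CCAAT, the letters of factor NF-Y, occurred in 35.7% of the members' promoters and 39.3% of tested ones. The antioxidant response letters TGACNNNGC occurred in 14.3% and 14.7%, and the STAT letters TTCNNNGAA in 7.14% and 6.67%. GAAANNGAA, the interferon response letters, occurred in 14.3% of the members' promoters and 6.56% of tested ones. Both strands were searched, no hits of different motifs overlapped in a member, and these shares carry no test: a match says only that the letters are in the window.

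Levels differed widely between the classes. The 14 standard core genes had a median of 178 FPKM in wild-type ESC, from Psma5 at 131 to Psmb3 at 296, a 2.26-fold range. The 17 matched genes of the 19S particle had a median of 119 FPKM there, from Psmd3 at 83.5 to Psmd7 at 182, a 2.18-fold range. Among the activators Psme3 was the most expressed and Psme2b the least, and among the assembly genes Psmg1 and Psmd9. Of the 50 genes, 48 passed the filter of 1 FPKM in at least 2 libraries and were tested, and Psmb8 and Psmb11 did not. The genes lie on 16 chromosomes, with 10 on chromosome 11. The closest pairs were Psme1 and Psme2, 5913 bases apart, Psmb5 and Psmb11, 7315 bases apart, and Psmb9 and Psmb8, 10865 bases apart (mm9).

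**Figure D1:**
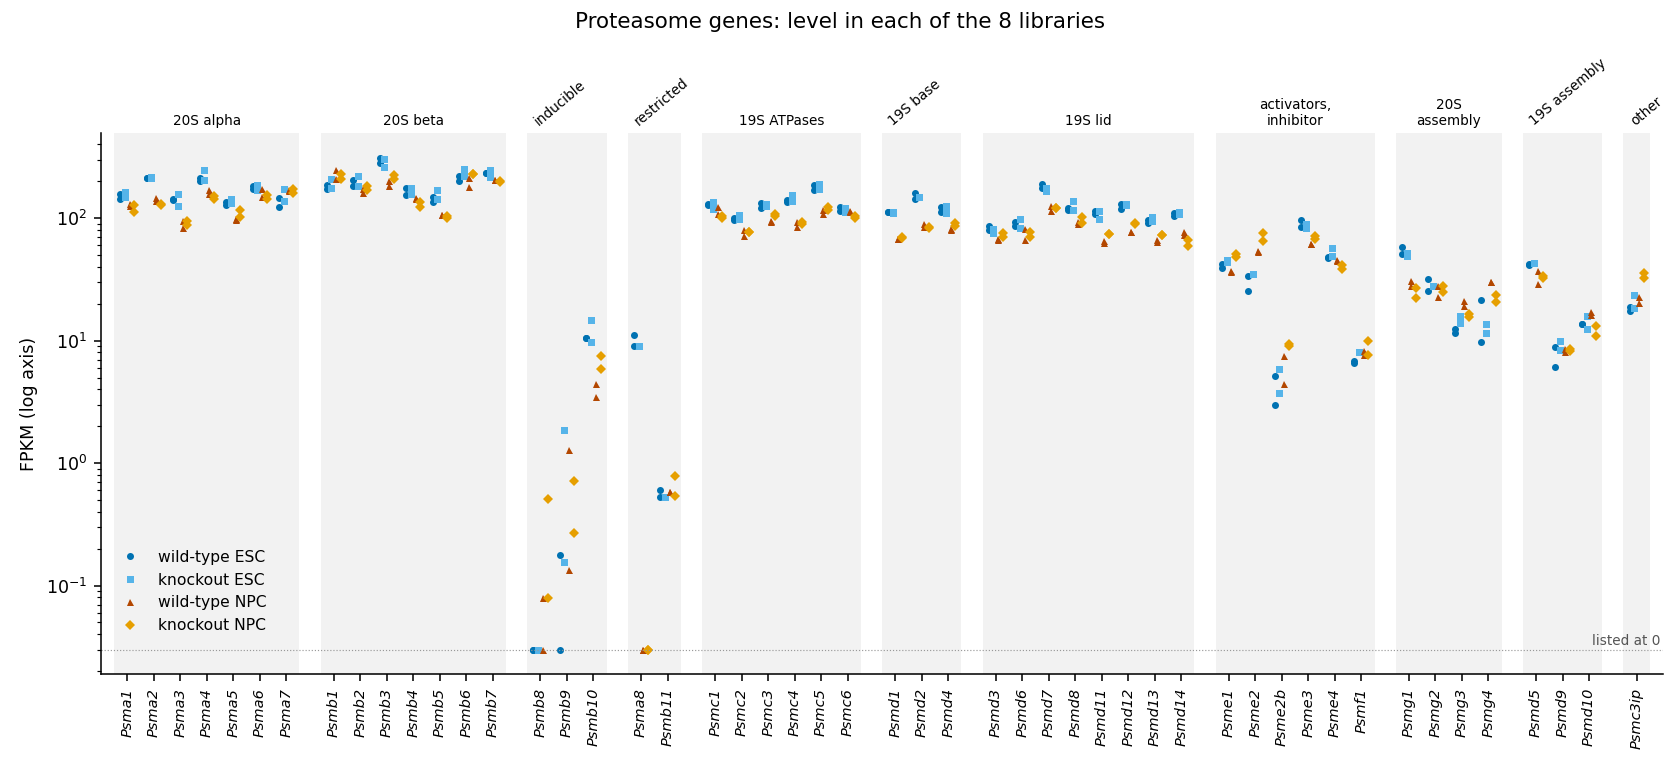
FPKM of the 50 genes in each of the 8 libraries, on a log axis, grouped by class. Points are single libraries, coloured by group, and values listed at 0 sit on the dotted line. Standard core and 19S genes lie within a narrow high band, the NPC libraries (triangles and diamonds) mostly below the ESC libraries, while Psmb8, Psmb9 and Psmb11 lie near or below 1 FPKM.

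The comparison of NPC with ESC asks how the proteasome genes changed as the stem cells differentiated. As deposited, most standard subunits were lower in NPC than in ESC, in both genotypes. In wild type, 27 of the 48 tested genes were lower and 5 were higher by limma with Benjamini-Hochberg adjusted p under 0.05. Among all 13318 genes tested, 31.1% were lower and 41.6% were higher. In the knockout, 31 members were lower and 3 higher, against 28.8% lower and 41.6% higher among all genes. Psmc3ip was 1 of the 3 (log2 +0.67, limma adjusted p = 0.00223). The median log2 change of the members was -0.32 in wild type and -0.35 in the knockout, against +0.15 and +0.17 over all genes. The 4 NPC libraries lay below all 4 ESC libraries for 30 of the 48 members (28.2% of all genes did so) and above them for 1 (39.3% of all genes did so). Fibroblast markers moved in the same comparison: 8 of 8 were higher in wild-type NPC and 6 of 8 in knockout NPC, with sums of 1.02 to 1.59 FPKM in the ESC libraries, 95.6 and 107 in wild-type NPC, and 81.4 and 91.8 in knockout NPC. Their part in the changes of the members was not tested.

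Abundant genes as a whole also went down, and the direction depends in part on the scaling. Of the 1432 genes with a mean of at least 50 FPKM, a level chosen after the values were seen, 52.2% were lower and 18.7% higher in wild-type NPC, and 53.8% lower and 19.7% higher in knockout NPC. The 32 members at that level had 23 lower and 2 higher calls in wild type and 26 lower and 0 higher in the knockout. Their median log2 changes were -0.42 and -0.38, against -0.32 and -0.34 for abundant genes. Under median-ratio scaling, which moved the median of all genes from +0.147 to +0.0449 in wild type and from +0.174 to +0.0323 in the knockout, members had 34 lower and 3 higher calls in wild type and 35 lower and 2 higher in the knockout. All genes tested then had 35.1% lower and 37.8% higher calls in wild type, and 34% and 35.9% in the knockout. Quantile normalization gives every library 1 distribution. Under it the members had 16 lower and 10 higher calls in wild type and 13 lower and 6 higher in the knockout. All genes tested had 35.6% lower and 34.4% higher calls in wild type under it, and 33% and 33.7% in the knockout. The share of lower calls among the members was then not above that of all genes. Abundant genes then had 35.4% lower calls in wild type and 34.7% in the knockout. The 10 genes lower in both genotypes under all 3 scalings were Psma2, Psma3, Psma8, Psmb10, Psmc4, Psmd1, Psmd2, Psmd12, Psmd14 and Psmg1, and Psme2 alone was higher in both under all 3.

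The genes of the 19S regulatory particle that match the symbol rule moved most uniformly of the classes as deposited. All 17 genes had negative log2 changes in both genotypes, 14 were called lower in wild type and 15 in the knockout, and none was called higher. Their summed level was 2060 and 2102 FPKM in the wild-type ESC libraries, 2037 and 2153 in knockout ESC, 1446 and 1490 in wild-type NPC, and 1528 and 1489 in knockout NPC. The NPC to ESC ratio of these sums was 0.705 in wild type and 0.720 in the knockout, with no overlap between ESC and NPC libraries. Shfm1, the smallest lid subunit, falls outside the symbol rule and so outside these sums, and it went up. It was at 316 and 312 FPKM in the wild-type ESC libraries, 328 and 381 in knockout ESC, 525 and 590 in wild-type NPC, and 583 and 562 in knockout NPC. Adrm1 and Uchl5 of the base, also outside the rule, went down. With median-ratio scaling all 17 were called lower in both genotypes. With quantile normalization 9 were lower and 2 higher in wild type, and 5 lower and 0 higher in the knockout. RNA was measured in bulk, so fewer cells of a type and less RNA per cell cannot be told apart.

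The 3 non-ATPase scaffold and receptor genes of the 19S base, Psmd1, Psmd2 and Psmd4, were all called lower in both genotypes. Psmd2 (mm9 chr16:20651725-20663487) encodes the large base subunit that docks ubiquitin-like shuttle proteins. It was at 143 and 160 FPKM in the wild-type ESC libraries, 149 and 148 in knockout ESC, 84.2 and 90.3 in wild-type NPC, and 83.5 and 84.5 in knockout NPC. No NPC library came near an ESC library, and the log2 change was -0.79 ± 0.07 (SE) in wild type (limma adjusted p = 5.43e-05) and -0.81 ± 0.07 in the knockout (limma adjusted p = 5.19e-05). Psmd1, the other large scaffold, was at 113 and 112 FPKM in the wild-type ESC libraries, 112 and 110 in knockout ESC, 67.2 and 67.0 in wild-type NPC, and 70.2 and 69.2 in knockout NPC. Its ESC libraries all lay above its NPC libraries, and its log2 changes were -0.74 ± 0.05 and -0.67 ± 0.05. Psmd4, a ubiquitin receptor, had log2 changes of -0.54 ± 0.09 and -0.39 ± 0.09.

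The 6 ATPases of the base, which unfold the substrate, had 4 lower calls in wild type and 6 in the knockout. Psmc5 was the most expressed, at 170 and 187 FPKM in the wild-type ESC libraries, 174 and 189 in knockout ESC, 109 and 116 in wild-type NPC, and 117 and 124 in knockout NPC. Its log2 change was -0.67 ± 0.08 in wild type (limma adjusted p = 0.000169) and -0.58 ± 0.08 in the knockout. Psmc4 had the largest fall of the class in the knockout, -0.68 ± 0.08 (limma adjusted p = 0.000183). Its levels were 135 and 141 FPKM in the wild-type ESC libraries, 139 and 155 in knockout ESC, 84.8 and 93.8 in wild-type NPC, and 93.0 and 89.8 in knockout NPC. Psmc2, the least expressed, was at 96.4 and 99.6 FPKM in the wild-type ESC libraries, 97.8 and 107 in knockout ESC, 71.2 and 80.5 in wild-type NPC, and 77.6 and 76.6 in knockout NPC. ESC and NPC libraries did not overlap for these 3 genes. Psmc1 and Psmc6 were called in the knockout and not in wild type, where their log2 changes were -0.15 and -0.06, and no difference between the genotypes' changes was called for either. Median-ratio scaling gave lower calls for both in wild type (limma adjusted p = 0.0229 and 0.0288). Quantile normalization gave higher calls there (+0.25, limma adjusted p = 0.0283, and +0.31, limma adjusted p = 0.00176).

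The lid, which removes the ubiquitin chain, had 8 genes that match the symbol rule, of which 7 were lower in wild type and 6 in the knockout. Psmd14 (mm9 chr2:61549751-61638433) encodes the deubiquitinase of the lid. It was at 105 and 111 FPKM in the wild-type ESC libraries, 109 and 112 in knockout ESC, 76.7 and 72.3 in wild-type NPC, and 66.7 and 59.3 in knockout NPC. All NPC values lay below all ESC values, with log2 changes of -0.53 ± 0.08 in wild type (limma adjusted p = 0.000584) and -0.80 ± 0.08 in the knockout (limma adjusted p = 7.07e-05), and the difference between these changes was not called (limma adjusted p = 0.132). Psmd11, a scaffold of the lid, fell most in wild type, by 0.80 on the log2 scale (SE 0.08), from 114 and 109 FPKM in ESC to 62.9 and 64.6 in NPC. In the knockout it was at 115 and 98.7 FPKM in ESC and 74.9 and 74.5 in NPC, a log2 change of -0.51 ± 0.08.

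Psmd12, another lid subunit, was at 130 and 120 FPKM in the wild-type ESC libraries, 132 and 128 in knockout ESC, 77.2 and 77.4 in wild-type NPC, and 92.1 and 88.9 in knockout NPC. Its log2 changes were -0.68 ± 0.06 and -0.51 ± 0.06. Psmd7 was the most expressed lid gene among the members, at 189 and 175 FPKM in the wild-type ESC libraries, 167 and 177 in knockout ESC, 114 and 125 in wild-type NPC, and 121 and 121 in knockout NPC. Psmd3 was the least expressed, at 86.4 and 80.6 FPKM in the wild-type ESC libraries, 75.0 and 82 in knockout ESC, 67.1 and 66.9 in wild-type NPC, and 75.6 and 69.5 in knockout NPC. It was the 1 member called lower in wild type only, and its knockout libraries overlapped between ESC and NPC. Psmd6 had log2 changes of -0.28 and -0.29 and was called in neither genotype.

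**Figure D2:**
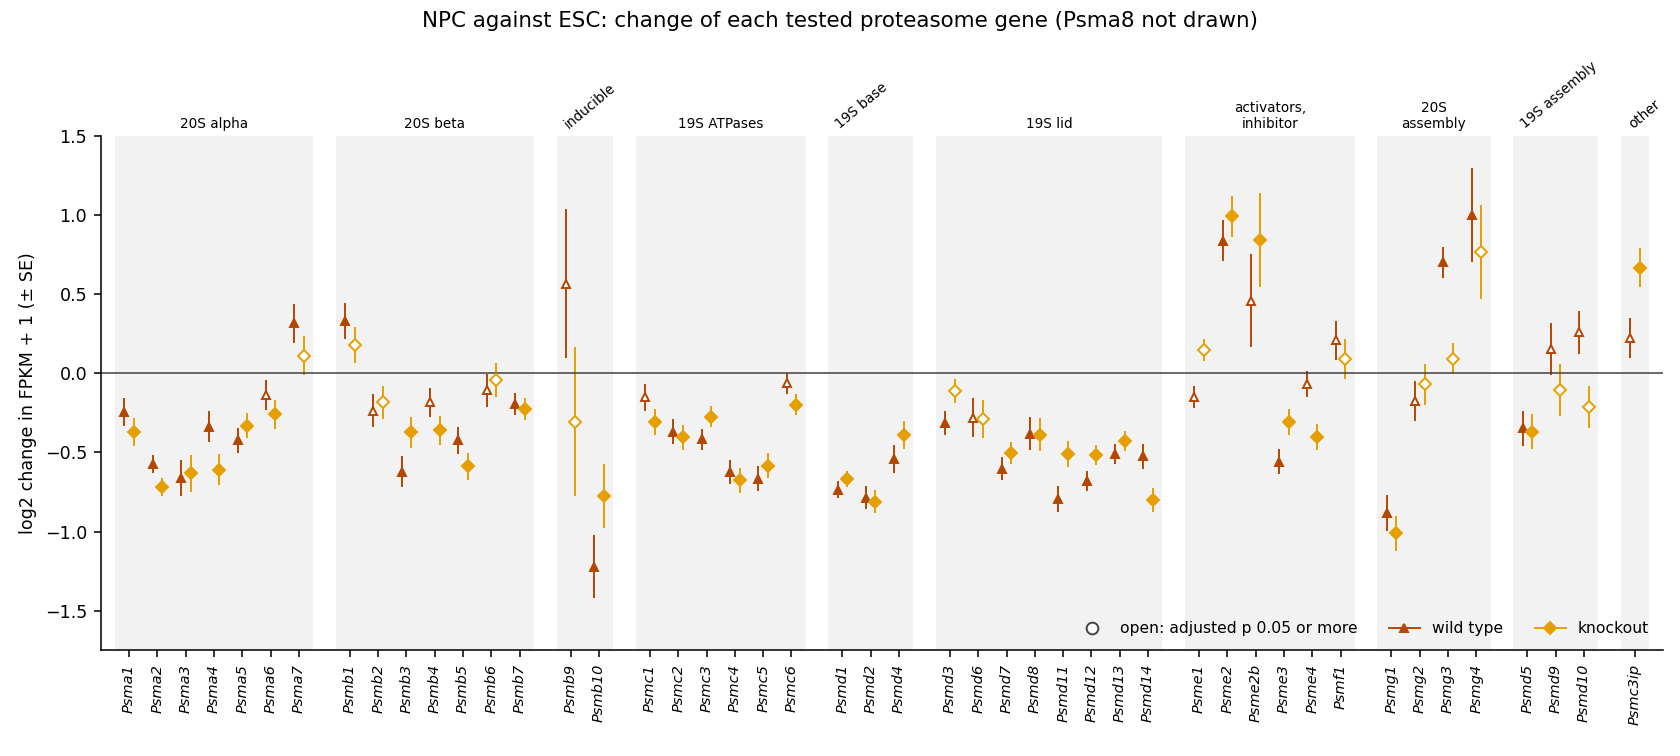
Log2 change in FPKM + 1 of NPC against ESC, with its SE, for each tested gene by class, in wild type (triangles) and in the knockout (diamonds). Filled symbols passed limma's adjusted p of 0.05, and Psma8, which was listed at 0 in NPC, is not drawn. As deposited every 19S gene drawn lies below 0 in both genotypes, while Psme2, Psmg3 and Psmg4 lie above it. Shfm1, a lid gene outside the symbol rule that was higher in NPC, is not drawn. Under quantile normalization 14 of the 17 19S genes were below 0 in wild type and 13 in the knockout.

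The standard core was lower too, with exceptions in both rings. Summed over all core genes the NPC to ESC ratio was 0.842 in wild type and 0.812 in the knockout. Alpha-ring genes had 5 lower and 1 higher call in wild type and 6 lower in the knockout. The beta ring had 3 lower and 1 higher call in wild type and 4 lower in the knockout. These directions depended on scaling: under quantile normalization the alpha ring had 2 lower and 2 higher calls in wild type and 2 lower and 1 higher in the knockout, and the beta ring had 1 lower and 3 higher in wild type and 1 lower and 2 higher in the knockout. The median log2 change of the beta ring was then +0.17 in wild type and +0.15 in the knockout.

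In the alpha ring, which gates entry to the core, Psma2 and Psma3 fell the most. Psma2 was at 211 and 213 FPKM in the wild-type ESC libraries, 216 and 211 in knockout ESC, 139 and 145 in wild-type NPC, and 132 and 127 in knockout NPC. Its log2 change was -0.57 ± 0.06 in wild type (limma adjusted p = 7.17e-05) and -0.72 ± 0.06 in the knockout (limma adjusted p = 2.56e-05). Psma3, the alpha gene with the lowest mean over the 8 libraries, was at 143 and 141 FPKM in the wild-type ESC libraries, 126 and 158 in knockout ESC, 83.8 and 94.9 in wild-type NPC, and 94.5 and 87.3 in knockout NPC. The ESC libraries lay above the NPC libraries for both genes, with Psma3 changing by -0.66 ± 0.12 and -0.63 ± 0.12. Psma4, the alpha gene with the highest mean, was at 214 and 200 FPKM in the wild-type ESC libraries, 205 and 248 in knockout ESC, 158 and 169 in wild-type NPC, and 151 and 143 in knockout NPC. Its wild-type call (log2 -0.34, limma adjusted p = 0.0166) was lost without wild-type ESC replicate 1 (log2 -0.29, adjusted p = 0.0845) and without wild-type NPC replicate 1 (log2 -0.29, adjusted p = 0.0840). Psma7 went the other way in wild type, +0.32 ± 0.12 (limma adjusted p = 0.0492), and was not called under median-ratio scaling (adjusted p = 0.171). Under quantile normalization Psma7 was higher in both genotypes (+0.69, limma adjusted p = 0.000532, and +0.50, limma adjusted p = 0.00308).

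Among the genes of the cutting sites, Psmb5 encodes the chymotrypsin-like site, which proteasome inhibitors target. It was at 136 and 148 FPKM in the wild-type ESC libraries, 143 and 168 in knockout ESC, 106 and 105 in wild-type NPC, and 105 and 101 in knockout NPC. It was lower in both genotypes, by -0.42 ± 0.09 in wild type (limma adjusted p = 0.00339) and -0.59 ± 0.09 in the knockout. Psmb7, the trypsin-like site, was at 235 and 235 FPKM in the wild-type ESC libraries, 219 and 246 in knockout ESC, 204 and 206 in wild-type NPC, and 196 and 200 in knockout NPC. Its log2 changes of -0.20 and -0.23 were called, but the wild-type call was lost without any 1 of the 4 wild-type libraries or of the 2 knockout NPC libraries (adjusted p = 0.0580 to 0.116), and the knockout call without knockout ESC replicate 2 (log2 -0.14, adjusted p = 0.115) or either knockout NPC library (adjusted p = 0.0620 and 0.0944). Psmb6, the caspase-like site, was at 199 and 221 FPKM in the wild-type ESC libraries, 219 and 252 in knockout ESC, 180 and 212 in wild-type NPC, and 228 and 228 in knockout NPC. The Psmb6 libraries of ESC and NPC overlapped in both genotypes and no change was called as deposited. Under quantile normalization Psmb6 was called higher in NPC in both genotypes (+0.25, limma adjusted p = 0.0383, and +0.33, limma adjusted p = 0.0143).

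Psmb3, a structural beta subunit, was the most expressed of all members, at 281 and 311 FPKM in the wild-type ESC libraries, 260 and 303 in knockout ESC, 184 and 200 in wild-type NPC, and 226 and 207 in knockout NPC. It fell by 0.62 on the log2 scale in wild type (SE 0.10) and by 0.37 in the knockout. The knockout call was lost without knockout ESC replicate 2 (log2 -0.27, adjusted p = 0.0631) and without knockout NPC replicate 2 (log2 -0.31, adjusted p = 0.0678). Psmb1 was the 1 beta gene called higher in wild type, +0.33 ± 0.11 (limma adjusted p = 0.0315), and median-ratio scaling ended that call (adjusted p = 0.130). Under quantile normalization Psmb1 was higher in both genotypes (+0.69, limma adjusted p = 0.000509, and +0.60, limma adjusted p = 0.00114).

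Of the inducible cutting subunits, which interferon raises, Psmb10 alone was above 2 FPKM in any library. Psmb8 was listed at 0 in both wild-type ESC libraries, both knockout ESC libraries and wild-type NPC replicate 2, and at 0.0789 FPKM in the other wild-type NPC library and 0.507 and 0.0790 in knockout NPC, which is at most 6 implied fragments. Psmb9 was at 0.177 and 0 FPKM in the wild-type ESC libraries, 0.155 and 1.88 in knockout ESC, 0.134 and 1.28 in wild-type NPC, and 0.715 and 0.268 in knockout NPC, at most 13 implied fragments, and its groups overlapped throughout. Psmb10 was at 10.5 and 10.6 FPKM in the wild-type ESC libraries, 9.77 and 14.9 in knockout ESC, 4.45 and 3.50 in wild-type NPC, and 7.43 and 5.89 in knockout NPC. It was lower in NPC, by -1.22 ± 0.20 in wild type (limma adjusted p = 0.00113) and -0.78 ± 0.20 in the knockout (limma adjusted p = 0.0106). The knockout call was lost without knockout ESC replicate 2 (log2 -0.50, adjusted p = 0.0533) or knockout NPC replicate 2 (log2 -0.63, adjusted p = 0.0662). On the same scale per length, Psmb10 was 0.0170 to 0.0603 of Psmb7, the standard subunit that it replaces.

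Psma8 encodes an alpha subunit known from the testis, where it takes the place of the Psma7 product. It was at 11.1 and 8.98 FPKM in wild-type ESC and at 9.12 and 9.06 in knockout ESC, and it was listed at 0 in all 4 NPC libraries. Psma8 was the 1 member with a level in every ESC library and none in NPC, and no fold is given against libraries listed at 0. Psmb11, the beta subunit of thymic epithelium, was at 0.602 and 0.532 FPKM in the wild-type ESC libraries, 0.532 and 0.527 in knockout ESC, 0.580 and 0.582 in wild-type NPC, and 0.789 and 0.543 in knockout NPC, a level under 1 FPKM in every library, which was not tested.

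The alternative activators did not move as 1 group. In wild type 1 of the 6 was higher and 1 lower, and in the knockout 2 were higher and 2 lower. Their summed level was 222 and 216 FPKM in the wild-type ESC libraries, 238 and 225 in knockout ESC, 212 and 209 in wild-type NPC, and 247 and 247 in knockout NPC. Psme1 and Psme2 encode the alpha and beta subunits of the same PA28 ring and are neighbours on chromosome 14. Psme2 (mm9 chr14:56206277-56209938) was at 25.6 and 33.6 FPKM in the wild-type ESC libraries, 34.8 and 34.9 in knockout ESC, 52.7 and 53.8 in wild-type NPC, and 75.4 and 65.6 in knockout NPC. All NPC libraries lay above all ESC libraries, and Psme2 was the 1 member for which they did, with log2 changes of +0.84 ± 0.13 in wild type (limma adjusted p = 0.000738) and +0.99 ± 0.13 in the knockout (limma adjusted p = 0.000330). Psme1 (mm9 chr14:56197331-56200364) was at 42.0 and 39.0 FPKM in the wild-type ESC libraries, 43.4 and 45.6 in knockout ESC, 36.7 and 36.2 in wild-type NPC, and 47.9 and 51.0 in knockout NPC. Its NPC against ESC change was not called in either genotype as deposited (-0.15 and +0.15). Median-ratio scaling gave a lower call in wild type (-0.27, limma adjusted p = 0.0137), and quantile normalization a higher call in the knockout (+0.28, limma adjusted p = 0.0134). The ratio of Psme2 to Psme1 as deposited was 0.608 to 0.862 in ESC libraries and 1.29 to 1.57 in NPC libraries.

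Psme2b, a near copy of Psme2 whose reads cannot be told from it with certainty, was at 2.99 and 5.10 FPKM in the wild-type ESC libraries, 5.91 and 3.70 in knockout ESC, 7.5 and 4.41 in wild-type NPC, and 9.43 and 9.01 in knockout NPC. Its call in the knockout (log2 +0.84, limma adjusted p = 0.0362) was lost without knockout ESC replicate 2 (log2 +0.56, adjusted p = 0.191) and without either knockout NPC library (adjusted p = 0.118 and 0.0993). Psme3, the nuclear activator, went down instead, from 97.2 and 84.5 FPKM in wild-type ESC to 61.5 and 61.1 in wild-type NPC and from 89.1 and 82.9 to 67.7 and 70.9 in the knockout. Its log2 changes were -0.56 ± 0.08 (limma adjusted p = 0.000593) and -0.31 ± 0.08 (limma adjusted p = 0.0116), and the knockout call was lost without knockout ESC replicate 1 (log2 -0.26, adjusted p = 0.0666) or knockout NPC replicate 1 (log2 -0.27, adjusted p = 0.0636). Psme4, a single large activator protein, was at 47.8 and 47.2 FPKM in the wild-type ESC libraries, 56.8 and 49.4 in knockout ESC, 45.9 and 44.8 in wild-type NPC, and 38.6 and 41.1 in knockout NPC. It was called lower in the knockout (-0.40 ± 0.08, limma adjusted p = 0.00312) and not in wild type (-0.07 ± 0.08), and the difference between the 2 was not called (limma adjusted p = 0.0915). Psmf1, an inhibitor of the core, stayed between 6.62 and 9.84 FPKM: 6.81 and 6.62 in the wild-type ESC libraries, 8.15 and 8.09 in knockout ESC, 7.58 and 8.27 in wild-type NPC, and 7.70 and 9.84 in knockout NPC.

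Assembly genes moved in both directions in wild type, with 2 of 7 lower and 2 higher, and 2 were lower and 0 higher in the knockout. Psmg1 and Psmg2 encode the first pair that builds the alpha ring. Psmg1 (mm9 chr16:96201542-96212510) was at 51.0 and 58.6 FPKM in the wild-type ESC libraries, 49.3 and 52.0 in knockout ESC, 27.7 and 30.7 in wild-type NPC, and 27.0 and 22.5 in knockout NPC. Its NPC levels were all below its ESC levels, by -0.88 ± 0.11 in wild type (limma adjusted p = 0.000276) and -1.01 ± 0.11 in the knockout (limma adjusted p = 0.000149). Psmg2 showed no call, with log2 changes of -0.17 and -0.07. Psmg3 and Psmg4, the second pair, were higher in wild-type NPC. Psmg3 was at 11.4 and 12.5 FPKM in the wild-type ESC libraries, 13.9 and 15.9 in knockout ESC, 19.1 and 21.1 in wild-type NPC, and 16.4 and 15.5 in knockout NPC, a change of +0.70 ± 0.10 in wild type (limma adjusted p = 0.000497) and +0.09 ± 0.10 in the knockout. Psmg4 was at 9.82 and 21.4 FPKM in the wild-type ESC libraries, 11.4 and 13.8 in knockout ESC, 30.2 and 30.1 in wild-type NPC, and 23.5 and 20.7 in knockout NPC, with 1 wild-type ESC library at the level of the knockout NPC. Its wild-type change of +1.0 ± 0.30 (limma adjusted p = 0.0183) was lost without either wild-type NPC library (adjusted p = 0.0670 and 0.0661), and its knockout change of +0.77 ± 0.30 was not called (limma adjusted p = 0.0515).

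Of the chaperones of the 19S base, Psmd5 was lower in both genotypes, at 41.8 and 42.0 FPKM in the wild-type ESC libraries, 43.0 and 43.2 in knockout ESC, 37.1 and 28.9 in wild-type NPC, and 33.7 and 32.6 in knockout NPC. Its groups did not overlap, but its calls (-0.35, limma adjusted p = 0.0243, and -0.37, limma adjusted p = 0.0195) were lost without wild-type ESC replicate 1 or 2 or wild-type NPC replicate 2 (log2 -0.35, -0.34 and -0.17, adjusted p = 0.0750 to 0.0851), and without any of the 4 knockout libraries (adjusted p = 0.0567 to 0.0824). Psmd9 was at 6.13 and 8.86 FPKM in the wild-type ESC libraries, 8.37 and 9.88 in knockout ESC, 8.07 and 8.61 in wild-type NPC, and 8.58 and 8.21 in knockout NPC, with overlapping groups.

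**Figure D3:**
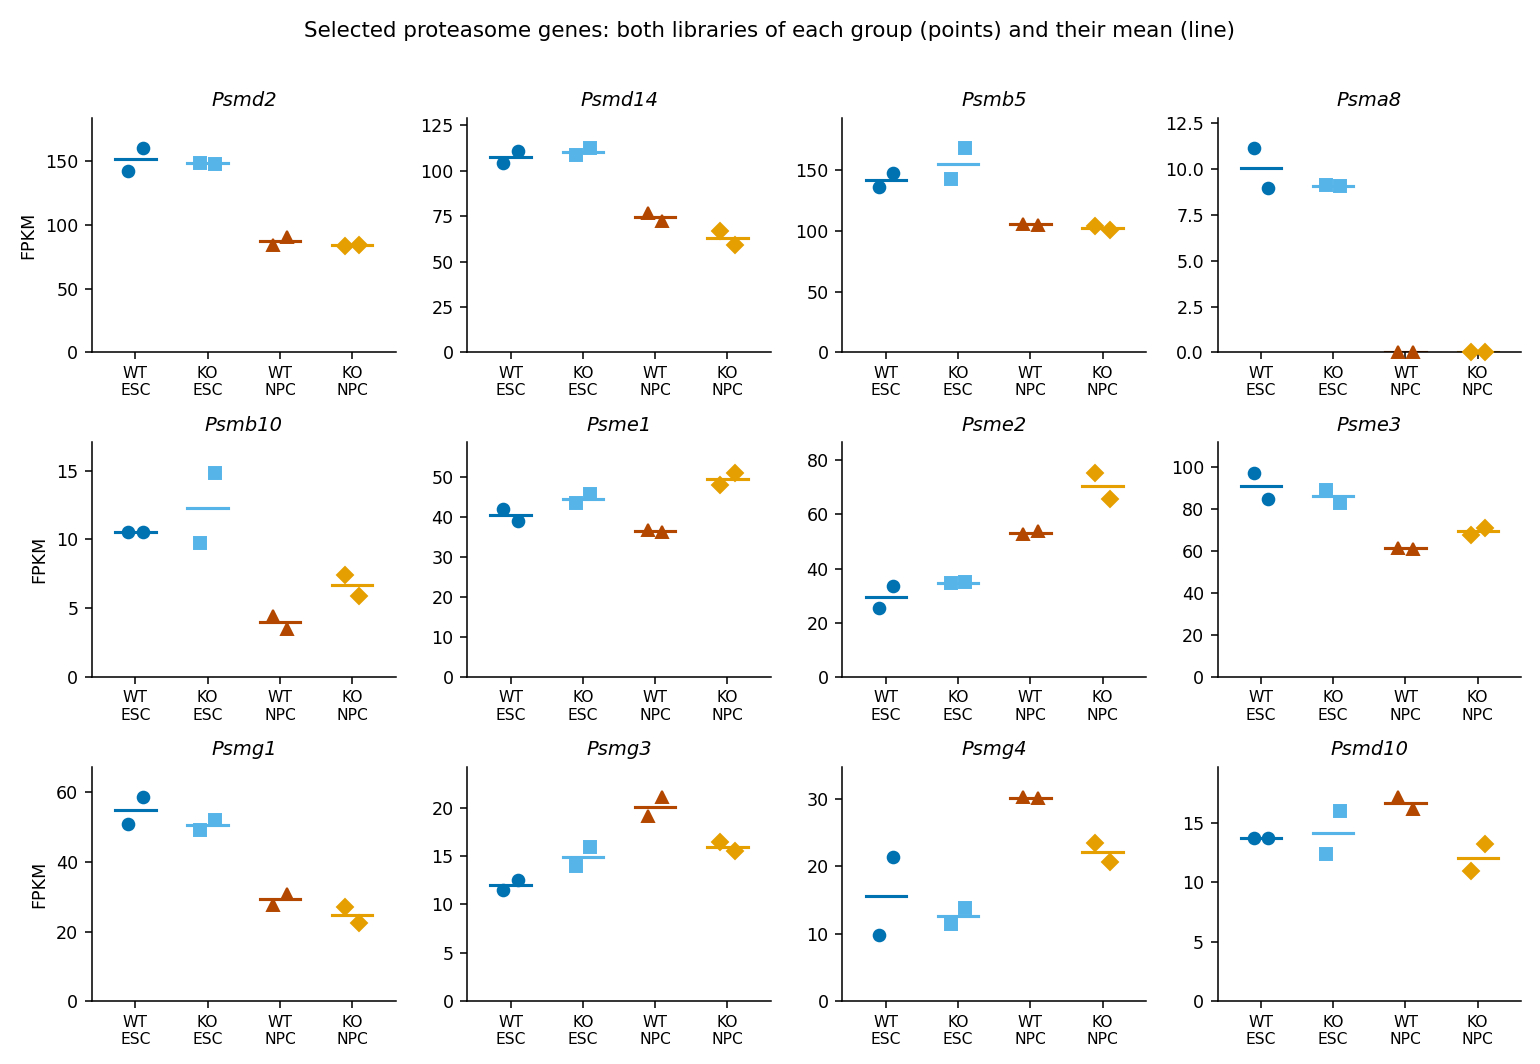
FPKM of 12 genes in both libraries of each group (points) with the group mean (line), each on a linear axis that starts at 0. Psmd2, Psmd14, Psmb5, Psme3 and Psmg1 are lower in all NPC libraries than in all ESC libraries, Psma8 is listed at 0 in NPC, and Psme2 is higher in NPC than in ESC. Psme1 separates knockout NPC from wild-type NPC, and both wild-type NPC libraries of Psmg3 lie above its other 6 libraries.

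The changes on differentiation in the 2 genotypes come from separate libraries. Of the members called lower, 26 were shared, which is 96.3% of the wild-type list and 83.9% of the knockout list, and no member was called in opposite directions. Over all genes tested the shared lower calls made up 78.9% of the wild-type list and 85.3% of the knockout list. Across the 48 members, which share these 8 libraries and are not replicates, Pearson's r between the changes was 0.923 (0.843 without Psma8) and Spearman's rho was 0.875. Over all 13318 genes they were 0.834 and 0.868. The members called in neither genotype were Psmb2, Psmb6, Psmb9, Psmd6, Psmd9, Psmd10, Psme1, Psmf1 and Psmg2.

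The comparison of knockout with wild type asks what loss of Wdr68 did to these genes in each state. In ESC no member was called by limma at adjusted p under 0.05, and 1 of the 48 had an unadjusted p under 0.05. The background was equally sparse, 33 of 13318 genes or 0.248%. Member log2 changes ran from -0.20 to +0.75 with a median of +0.04, and the knockout to wild-type ratio of the 4 class sums lay between 0.990 and 1.06. The largest value was that of Psmb9, which rests on the few fragments given above. Both knockout libraries lay above both wild-type libraries for 6 members and below them for 0, against 19.5% and 24.7% of all genes.

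In NPC 3 members were called higher and 1 lower, or 4 of 48, while 27.4% of all genes were called (14.7% higher and 12.7% lower). This share of the members was below that of all genes, and 12 of the 48 had an unadjusted p under 0.05. Without Psmc3ip, 2 of 47 were called higher and 1 lower. Member log2 changes ran from -0.44 to +0.65, with a median of +0.02 against +0.05 for all genes. Knockout libraries lay wholly above the wild type for 17 members and wholly below for 13, against 36.6% and 27% of all genes. The ratio of knockout to wild-type sums was 1.0 for the core, 1.03 for the 19S particle, 1.18 for the activators and 0.878 for the assembly genes. Neural progenitor markers (7 of 8 called lower), neuron markers (6 of 6 lower, 287 and 316 FPKM in sum against 9.50 and 14.2) and blood and endothelium markers (7 of 7 tested called higher) moved in the same contrast, and 5 of 8 fibroblast markers were lower and 1 higher. Their part in the results on single members was not tested.

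The call that held in every alternative tried was that of Psme1, +0.43 ± 0.07 in NPC (limma adjusted p = 0.00422), with both knockout libraries (47.9 and 51.0 FPKM) above both wild-type libraries (36.7 and 36.2). In ESC its change was +0.13 ± 0.07, and the difference between the knockout effects in NPC and ESC was +0.30 ± 0.10 and not called (limma adjusted p = 0.0868). Its partner Psme2 had a log2 change of +0.39 ± 0.13, just short of the threshold (limma adjusted p = 0.0605). White blood cells are rich in PA28 and the immunoproteasome. Their 6 markers summed to 1.04 and 1.28 FPKM in wild-type NPC and to 1.77 and 1.92 in knockout NPC, with Ptprc and Tyrobp listed at 0 in wild-type NPC and Lyz2 in knockout NPC. In the ESC libraries they summed to 30.3 to 46.4 FPKM, of which Laptm5 made up 28.2 to 43.9. Only 2 of the 6 passed the filter, and the part of such cells in the Psme1 and Psme2 values was not tested. Psmb10 had a change of +0.62 ± 0.20 in NPC that was not called as deposited (limma adjusted p = 0.0603) or under median-ratio scaling (limma adjusted p = 0.0806). It was called higher under quantile normalization (+0.70, limma adjusted p = 0.0349).

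The other calls in NPC depended on single libraries. Psmd12 was higher by 0.22 ± 0.06 on the log2 scale (limma adjusted p = 0.0367), and the call was lost without either wild-type NPC library, either knockout NPC library or either knockout ESC library (log2 +0.20 to +0.25, adjusted p = 0.0550 to 0.163) and under median-ratio scaling (adjusted p = 0.116). Psmd10, a chaperone of the base also known as an oncoprotein, was at 13.7 and 13.8 FPKM in the wild-type ESC libraries, 12.4 and 16.0 in knockout ESC, 17.2 and 16.2 in wild-type NPC, and 10.9 and 13.2 in knockout NPC. It was lower in knockout NPC by -0.44 ± 0.13 (limma adjusted p = 0.0498), a call lost without any of the 4 NPC libraries or of the 2 wild-type ESC libraries (log2 -0.57 to -0.32, adjusted p = 0.0581 to 0.231). Psmc3ip, the recombination factor, was at 18.8 and 17.5 FPKM in the wild-type ESC libraries, 18.5 and 23.8 in knockout ESC, 20.2 and 22.6 in wild-type NPC, and 35.5 and 32.5 in knockout NPC. It was higher in knockout NPC by +0.65 ± 0.13 (limma adjusted p = 0.00906), and the call was lost without wild-type NPC replicate 1 (log2 +0.57, adjusted p = 0.0564) or knockout NPC replicate 1 (log2 +0.58, adjusted p = 0.0612).

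**Figure D4:**
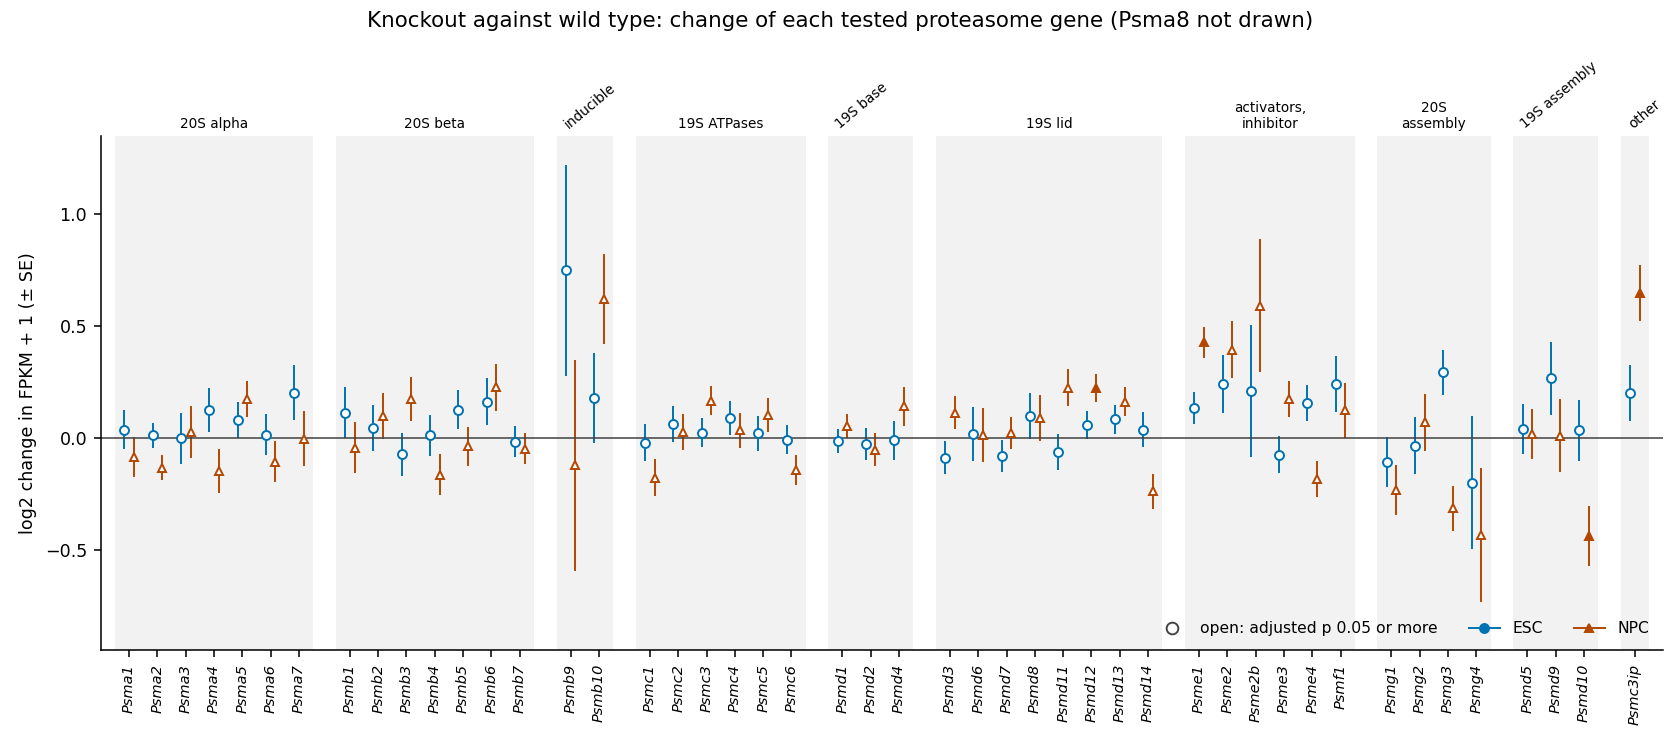
Log2 change in FPKM + 1 of knockout against wild type, with its SE, for each tested gene by class, in ESC (circles) and NPC (triangles). Filled symbols passed limma's adjusted p of 0.05: none in ESC, and Psme1, Psmd12, Psmd10 and Psmc3ip in NPC. Psma8 is not drawn.

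The effect of the knockout differed between NPC and ESC by the test of the difference for 1 member, Psmg3 (-0.61 ± 0.14, limma adjusted p = 0.0272), while 8.39% of all genes were called in that direction and 8.41% in the other. Psmg3 was +0.29 ± 0.10 in ESC and -0.32 ± 0.10 in NPC, and neither change was called on its own (limma adjusted p = 0.307 and 0.0544). The NPC change of Psmg3 was called under median-ratio scaling (-0.37, limma adjusted p = 0.0321) and under quantile normalization (-0.43, limma adjusted p = 0.0177). Leaving out wild-type ESC replicate 1, wild-type NPC replicate 2, knockout ESC replicate 2, knockout NPC replicate 1 or knockout NPC replicate 2 ended the call (log2 -0.55, -0.54, -0.52, -0.65 and -0.57, adjusted p = 0.0669 to 0.0919).

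Other proteasome proteins, which the symbol rule leaves out, were measured for 10 of 11 listed genes. In wild-type NPC against ESC 6 were lower and 3 higher as deposited, and in the knockout 5 and 3. The lower calls were 60% and 50% of the 10, against 31.1% and 28.8% of all genes. The higher calls were 30% in each genotype, against 41.6% of all genes. Uchl5, a deubiquitinase held at the 19S base, was lower (log2 -0.89 in wild type and -0.55 in the knockout). Shfm1, the smallest lid subunit, was higher instead (+0.82 and +0.69), at 316 and 312 FPKM in wild-type ESC and 525 and 590 in wild-type NPC. AI314180, an adaptor that binds the 26S particle, was also higher (+1.16 and +1.54), as was Akirin2, which brings the proteasome into the nucleus (+0.67 and +0.57). In knockout against wild-type NPC 1 of the 10 was called, Uchl5 (+0.42 ± 0.09, limma adjusted p = 0.0158). Adrm1, a ubiquitin receptor of the base, and Pomp, the maturation factor of the core, were picked after their values were seen. Adrm1 was lower (-0.46 and -0.55), and so was Pomp (-0.29 and -0.53), although Pomp was at +0.09 in wild type and uncalled in both genotypes under quantile normalization.

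Of 8 genes of factors known to control proteasome genes, 6 were lower and 1 higher in wild-type NPC against ESC as deposited, and 4 lower and 2 higher in the knockout. The lower calls were 75% and 50% of the list, against 31.1% and 28.8% of all genes. The higher calls were 12.5% and 25%, against 41.6% of all genes in each genotype. The largest changes in wild type were those of Stat3 (-1.37), Nfe2l2 (-1.06) and Ddi2 (-0.89), the last a protease that cuts the Nfe2l1 product, and in the knockout those of Ngly1 (+0.88), Ddi2 (-0.81) and Nfya (+0.73). Nfe2l1 encodes the factor that raises proteasome genes when the proteasome is inhibited. It was at 38.7 and 38.4 FPKM in the wild-type ESC libraries, 34.9 and 36.4 in knockout ESC, 28.5 and 30.5 in wild-type NPC, and 39.8 and 38.7 in knockout NPC. Its wild-type change on differentiation was -0.38 ± 0.07 (limma adjusted p = 0.00146). In knockout against wild-type NPC 6 of the 8 were higher and none was lower (14.7% of all genes were higher): Stat3 by 0.98 ± 0.09, Nfe2l2 by 0.96 ± 0.08, Ngly1 by 0.71 ± 0.19, Nfe2l1 by 0.40 ± 0.07, Nfyc by 0.34 ± 0.06 and Nfyb by 0.29 ± 0.08 on the log2 scale. For Stat3, Nfe2l2 and Nfe2l1 the difference between the knockout effects in NPC and ESC was also called (limma adjusted p = 0.00296, 0.00296 and 0.0117). Over the same contrast 1 of the 31 standard subunits, Psmd12, was called as deposited. That call was lost under both other scalings. Psmd14, at -0.24 as deposited (limma adjusted p = 0.0573), was called lower under median-ratio scaling (-0.29, limma adjusted p = 0.0245). Under quantile normalization Psmd14 (-0.31, limma adjusted p = 0.0162), Psmc1 (-0.27, limma adjusted p = 0.0462) and Psmc6 (-0.22, limma adjusted p = 0.0244) were called lower.

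Ubiquitin and substrate delivery genes (18 listed) had 7 lower and 2 higher calls in wild-type NPC against ESC and 6 lower and 4 higher in the knockout. The lower calls were 38.9% and 33.3% of the list, against 31.1% and 28.8% of all genes. The higher calls were 11.1% and 22.2%, against 41.6% of all genes in each genotype. Zfand5, a proteasome-binding protein, was higher (+1.34 in wild type and +1.02 in the knockout). Uba1 and Uba6, the enzymes that activate ubiquitin, were lower (-0.62 and -0.95 for Uba1, -0.73 and -0.90 for Uba6), and Uba1 was the 1 gene of the list for which the difference between the knockout effects was called (-0.33 ± 0.08, limma adjusted p = 0.0306). Ubqln2, a shuttle protein, was higher (+0.78 and +0.74). In knockout against wild-type NPC 3 were higher and 3 lower, with Ubb (+0.43), a polyubiquitin gene, Zfand5 (-0.41) and Ubqln1 (-0.37) the largest. Each count is 16.7% of the list, near the 14.7% of all genes called higher and 12.7% called lower. Under quantile normalization the list had 6 lower and 7 higher calls in wild type and 6 lower and 8 higher in the knockout. All genes then had 35.6% lower and 34.4% higher calls in wild type, and 33% and 33.7% in the knockout. Antigen processing and interferon genes (11 tested) had 5 higher and 3 lower calls in wild-type NPC against ESC and 4 higher and 1 lower in the knockout, so that 45.5% and 36.4% were higher where 41.6% of all genes were in each genotype. Quantile normalization gave 5 higher and 5 lower in wild type and turned the median log2 change there from +0.53 to -0.10, and it gave 3 higher and 3 lower in the knockout. Erap1 (+2.23 and +2.25), which trims peptides, and B2m (+1.6 and +1.73), the class I light chain, were higher in both genotypes. In knockout against wild-type NPC 4 were higher and 3 lower, with H2-K1 (-1.6 ± 0.24) and H2-D1 (-1.06 ± 0.19), the class I heavy chains, lower and Irf1 (+1.24 ± 0.14), an interferon-induced regulator, higher.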

How the data were processed

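RNA-seq of 8 mouse libraries in 4 groups of 2 was analysed from the authors' deposited FPKM values, made with TopHat2 2.1.1, Cufflinks 2.2.1 and build mm9 per the submitters' processing notes. Each table held 24854 entries. Entries that share a symbol were summed, and 12 symbols with a failed estimate were left out. FPKM depends on length and on all mapped fragments of a library, so abundant genes shift the others. Fragments behind a value were derived from the deposited 95% bounds.

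The limma package (3.58.1, under R 4.3.3) was run on log2(FPKM + 1) for the 13318 genes that reached 1 FPKM in at least 2 libraries. The fit estimated a mean for each of the 4 groups with a mean-variance trend, which leaves 4 degrees of freedom for error. Tests were two-sided with Benjamini-Hochberg adjustment over all genes. A gene is called where adjusted p is under 0.05. The pipeline was tested on simulated data. Changes of low genes are understated on this scale.

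Per-library values are given for the member with the largest called change per class and comparison, the highest and lowest of each class, and a fixed set. Of other lists, up to 3 called genes with the largest change per comparison are named. Members, classes and lists were chosen with earlier results of these data known. Alternatives varied the pseudocount, filter, scaling, groups fitted, replicate block and left-out library. Class counts by scaling and the level of 50 FPKM were added after seeing the data.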

Additional observations from a re-analysis of the deposited data

Results flagged for a closer look

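The knockout effect on Psmg3, a chaperone gene of core assembly, differed between NPC and ESC by the test of the difference (log2 -0.61 ± 0.14, limma adjusted p = 0.0272). Both knockout libraries were above both wild-type libraries in ESC and below them in NPC. Without single libraries the adjusted p rose to between 0.0669 and 0.0919 for the 5 libraries named with this result above.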

How the results depend on the processing

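The count of members called lower in knockout against wild-type NPC, 1 as reported, was 0 with a pseudocount of 0.1, 0 with no filter, 0 with a filter of 5 FPKM, 3 with median-ratio scaling, 6 with quantile normalization and 2 with only the compared groups fitted, and 0 to 1 with 1 library left out. The count called higher there was 1 to 4 with 1 library left out. For NPC against ESC in wild type, members called higher numbered 2 with no filter, 3 with median-ratio scaling, 10 with quantile normalization and 2 to 5 with 1 library left out, and members called lower numbered 16 with quantile normalization. In the knockout, quantile normalization gave 6 higher and 13 lower. The lower call of the difference between knockout effects became 0 with no filter and 0 to 2 with 1 library left out. Under quantile normalization 3 called members changed sign in wild type (Psma1, Psma4 and Psmb7) and 9 in the knockout (Psma1, Psma5, Psma6, Psmb3, Psmb4, Psmb7, Psmc1, Psmc3 and Psmc6), and uncalled members did too, such as Psmd3 in the knockout (0.13) and Psme4 in wild type (0.16). Of the named members it reversed Psma4 in wild type (0.0394), Psmb3 in the knockout (0.0188), Psmb6 in wild type (0.25) and the knockout (0.33), and Psmb7 in wild type (0.15) and the knockout (0.15). Median-ratio scaling moved the NPC to ESC ratios of sums to 0.774 and 0.716 (core, wild type and knockout), 0.648 and 0.635 (19S), 0.880 and 0.941 (activators) and 0.731 (assembly, knockout). Of the named members called, 16 of 24 in wild-type differentiation, 13 of 24 in the knockout, 1 of 4 in knockout NPC and 0 of 1 for the difference were called in every alternative. Apart from what scaling does by construction, the cause of these changes was not tested.

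With a replicate block the counts higher and lower were 0 and 0 in ESC, 3 and 1 in NPC, 5 and 27 for wild-type differentiation, 4 and 31 for the knockout, and 0 and 1 for the difference. Deviations of same-numbered libraries correlated at -0.0543 to 0.179, so the numbers were not taken as pairs. With 2 libraries a group, Psmb8 and Psmb9 rest on too few fragments for any comparison.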
